A study of Bos taurus with 88 samples.

Results

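Whole blood of newborn Holstein (H) dairy calves was compared between 48 h and 0 h of age in 16 RNAseq libraries out of the 88 in the series. The libraries were chosen by the breed and age in the sample labels, and they came from 8 calves, each bled at both ages and paired by its tag number. The whole series followed 22 calves of 3 breed groups at 4 ages up to 168 h, and the other 14 calves were beef calves from Charolais × Limousin cows (CL, 7 calves) and Limousin × Friesian cows (LF, 7 calves). The H calves, whose labels give holstein friesian as the breed, were taken from the dam soon after birth. They were bled for the 0 h sample before any feed and first given colostrum amounting to 5% of body weight by tube. A further feed of 5% by teat feeder and more colostrum from the own dam followed before the 48 h sample. The CL and LF calves stayed with the dam and suckled on another farm. The 48 h sample therefore followed colostrum, separation and 48 h of life outside the womb in all 8 H calves alike, and these cannot be told apart.

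The calf is born with almost no circulating antibody, because the placenta of cattle keeps maternal antibody from the fetus, and it takes antibody up from colostrum through a gut that closes soon after birth. Birth also brings a surge of cortisol, a change from fetal to air breathing and the first contact with microbes. Whole blood carries neutrophils, lymphocytes, monocytes, platelets and young red cells that still hold RNA. RNA of a blood sample pools all of them, so fewer cells of a type and less RNA per cell cannot be told apart in any value given here.

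Reads were counted on 24616 Ensembl genes, and 5196 of these were at 0 counts in all 16 libraries. Gene counts ran from 13410404 to 39304404 per library at 0 h and from 17368423 to 25960137 at 48 h. By these totals alone, 3 counts corresponded to 0.0763 to 0.224 CPM (counts scaled to a common library size). The CPM of genes given below also carry a scaling factor for each library. In calf 6 at 0 h, 5 counts of ENSBTAG00000011467 were thus 0.564 CPM. The sources used here pair 0 of the identifiers with a gene symbol. Genes are therefore given by identifier without a role, and neither the blood label nor any cell type was checked against marker genes. The 2 largest rises and 2 largest falls among DEG with a mean of at least 1 CPM and the same direction in all 8 calves are described in full. The rest are described by counts and levels.

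The libraries of calf 6 stood apart from those of the other 7 calves at both ages. Reads that mapped to several places in the genome, which are not counted on genes, made up 41.0% of the reads of calf 6 at 0 h and 49.2% at 48 h, while the next highest calf had 19.4% and 25.5%. The 10 genes with most counts took 38.95% and 48.82% of its gene counts. Both shares remained high in this calf at 72 h (45.7% and 51.1%), and at 168 h they were 12.7% and 10.4%. The count of DEG, the shares of reads tested and the count of genes that differed between calves are given with and without it.

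The make-up of the libraries also moved with age. The share of multimapping reads rose from 15.96% ± 10.69 at 0 h to 20.22% ± 12.65 at 48 h (mean ± SD, n = 8), by 4.26 percentage points on average, and it was higher at 48 h in 8 of 8 calves (exact two-sided sign-flip permutation test within calves, p = 0.00781, the smallest that 8 calves allow; adjusted over 4 measures 0.0156). Without calf 6 the rise was 3.69 points (exact p = 0.0156). The 10 genes with most counts were taken in each library, so they can differ between libraries. Their share rose from 13.4% ± 10.6 to 16.9% ± 13.5 (n = 8), also in 8 of 8 calves (exact permutation p = 0.00781, adjusted 0.0156), and by 2.59 points without calf 6. Reads outside annotated genes fell from 26.8% ± 7.25 to 22.2% ± 6.00 (n = 8) and were lower in 6 of 8 calves (exact permutation p = 0.0312, adjusted 0.0417). This last change missed 0.05 when calf 2, 3, 4, 6, 7 or 8 was left out (exact permutation p = 0.0625 each). The mean change was then still -4.83 to -3.98 points. With 7 calves the smallest possible exact p is 0.0156, so the loss cannot be told from that of the smaller number of calves. The number of genes at 1 CPM or more was 11659 ± 233 at 0 h and 11617 ± 264 at 48 h, a mean difference within the calf of -42.4 genes, which did not pass the test (exact permutation p = 0.430, n = 8). The part of these shifts in the gene changes was not tested, other than by leaving out calf 6 and the 3 genes with most counts over all libraries of the fit together.

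**Figure D1:**
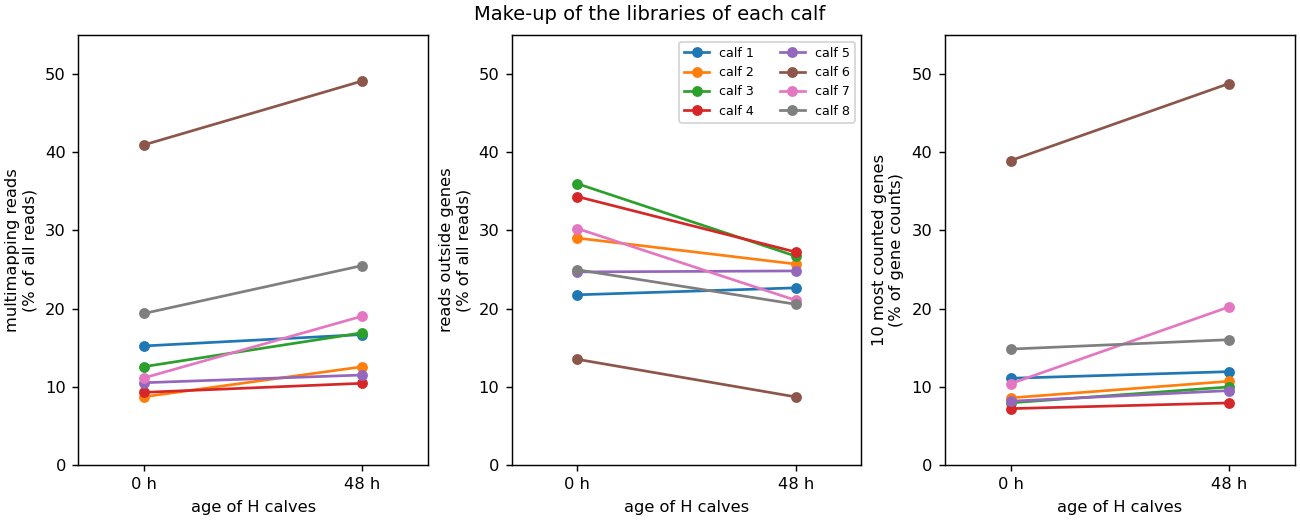
Share of multimapping reads, share of reads outside genes (both in percent of all reads) and share of the 10 most counted genes of each library (percent of gene counts) in each H calf at 0 h and 48 h, each line 1 calf. Calf 6 lies above the other 7 calves for multimapping reads (41.0% and 49.2%) and for the top 10 genes, and every calf is higher at 48 h for both.

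The blood transcriptome changed widely in the H calves by 48 h. Of 12508 genes tested, 1397 (11.2%) were differentially expressed (DEG, called at an adjusted p under 0.05 together with a change of 1.5-fold or more), with 742 upregulated (5.93%) and 655 downregulated (5.24%) at 48 h. The test was edgeR's quasi-likelihood test with the calf as a block and Benjamini-Hochberg adjustment. Without the block 868 genes (6.94%) were called, of which 852 were among the 1397. An unadjusted p under 0.05 was reached by 4121 genes (32.9%). Leaving out calf 6 gave 1441 DEG, 770 upregulated and 671 downregulated. Leaving out the 3 genes with most counts gave 1407. With only the 5 calves that had no sample label ending in R, whose meaning the labels do not state, 854 genes were called and 800 of these were among the 1397.

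Most changes were moderate. The median upregulated DEG rose by 0.97 on the log2 scale (a fold of 1.95) and the median downregulated DEG fell by 0.93 (a fold of 1.91), beside a median of -0.0043 over all tested genes. A change of at least 2-fold was seen in 344 upregulated and 283 downregulated DEG, of at least 4-fold in 50 and 50, and of at least 8-fold in 12 and 5. A test against a fold change of 1.5, in place of a threshold on the estimate, called 458 genes (265 higher and 193 lower at 48 h). The upregulated genes started low, with a median of 5.70 CPM at 0 h and 12.1 CPM at 48 h. The downregulated genes went from a median of 15 CPM to 6.98 CPM, and all tested genes had medians of 18.7 and 19.2 CPM. None of the upregulated DEG was at 3 counts or under in every 0 h library (0 genes) and none of the downregulated DEG in every 48 h library (0 genes), and 1380 of the 1397 DEG had a count in all 16 libraries.

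**Figure D2:**
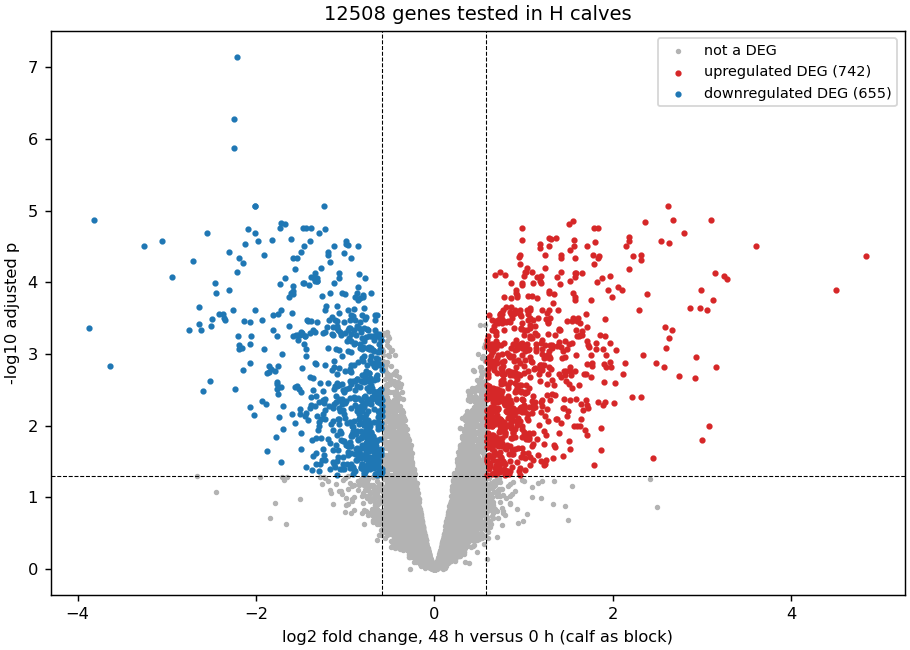
Log2 fold change at 48 h versus 0 h against -log10 of the adjusted p in H calves, each point 1 of 12508 tested genes and dashed lines at a fold change of 1.5 and an adjusted p of 0.05. The 742 upregulated and 655 downregulated DEG spread on both sides, with ENSBTAG00000011467 at 4.84 and ENSBTAG00000021161 at -3.87.

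DEG were found at every level of expression. Tested genes were split into 4 classes of 3127 genes by mean log2 CPM. In the lowest class (median 1.97 CPM) 321 genes rose and 258 fell, which is 10.3% and 8.25% of the class. In the second class (median 10.8 CPM) the shares were 5.34% and 4.54%, and in the third (median 32.1 CPM) 3.87% and 3.20%. In the highest class (median 116 CPM) 4.25% of the genes rose and 4.96% fell, and it was the only class with more falls than rises. The typical standard error of the log2 fold change shrank from 0.217 in the lowest class to 0.103 in the highest.

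The direction of change was shared by nearly all calves. Of the upregulated DEG, 526 (70.9%) were higher at 48 h in all 8 calves, 188 in 7 calves and 28 in 6 or fewer. Of the downregulated DEG, 428 (65.3%) were lower in all 8 calves, 190 in 7 and 37 in 6 or fewer. Among all tested genes 909 (7.27%) were higher in all 8 calves and 812 (6.49%) lower. Separation of the ages was rarer than agreement in direction. The 8 values at 48 h lay wholly above the 8 at 0 h for 15.2% of the upregulated DEG and wholly below for 11.6% (76) of the downregulated DEG, beside 118 (0.943%) and 90 (0.720%) of all tested genes. Calls and these counts come from the same values and do not support each other.

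Calf by calf, between 91.1% (calf 6) and 97.8% (calf 2) of the upregulated DEG were higher at 48 h, and between 87.2% (calf 6) and 98.6% (calf 2) of the downregulated DEG were lower. The mean log2 change of the upregulated DEG ran from 0.96 in calf 3 to 1.37 in calf 4. That of the downregulated DEG ran from -0.81 in calf 6 to -1.38 in calf 4. Calf 4 thus had the largest mean change in both directions. Its log2 changes over all tested genes also had the largest SD of the 8 calves (0.774). As a share of all gene counts, the upregulated DEG took 2.51 to 13.9% at 0 h and 3.89 to 24.0% at 48 h, with calf 6 highest at both ages (without it 2.51 to 5.65% and 3.89 to 14.5%). The downregulated DEG took 4.08 to 9.59% at 0 h and 1.77 to 5.41% at 48 h, with calf 6 lowest at both ages (without it 6.24 to 9.59% and 3.48 to 5.41%).

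At the later ages of the same calves, which played no part in choosing the DEG, the median levels stayed nearer to those of 48 h than of 0 h, while the share of gene counts taken by the upregulated DEG was nearer to 0 h at 168 h. The median upregulated DEG had a mean of 6.54, 14.04, 15.9 and 14.6 CPM at 0, 48, 72 and 168 h when all 88 libraries were scaled together. The median downregulated DEG had 17.2, 8.04, 7.63 and 7.75 CPM at these ages, and the median over all tested genes was 21.5, 22.3, 22.5 and 22.7 CPM. The share of gene counts taken by the upregulated DEG had medians over calves of 4.63%, 8.77%, 9.02% and 6.08% at the same ages. That of the downregulated DEG was 7.13%, 3.64%, 3.41% and 3.48%. These levels are given side by side, and the later ages were not tested.

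The plot of principal components of the 16 libraries showed both age and calf. The first component held 23.3% of the variance and was higher at 48 h in 8 of 8 calves, and the second held 22.3% and was lower at 48 h in 8 of 8 calves. Both libraries of calf 6 lay at the high end of both components.

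**Figure D3:**
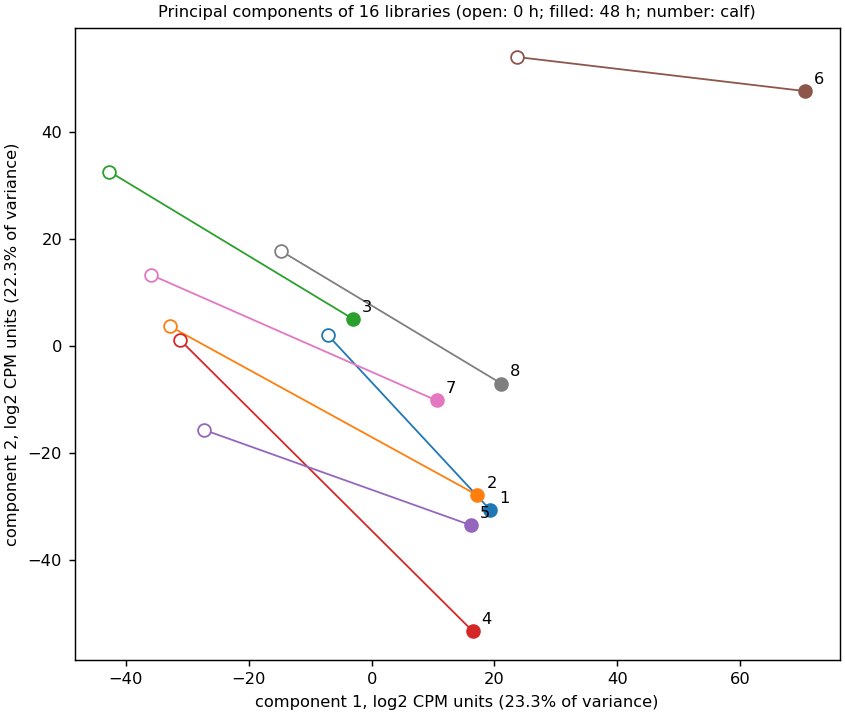
First and second principal component of log2 CPM over the 12508 tested genes, with open circles for 0 h, filled circles for 48 h, a line joining the libraries of each calf and the calf number beside the 48 h library. Every calf moves to the right and downwards from 0 h to 48 h, and calf 6 lies apart at the upper right.

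Differences between calves were kept over both ages. In the same fit, 1917 genes (15.3% of those tested) differed between the 8 calves with age accounted for (edgeR's quasi-likelihood test of the calf term, adjusted p under 0.05). This count depended on calf 6 and was 1114 (8.83%) without it, and it was 4144 with DESeq2's likelihood ratio test. Among the 1397 DEG, 479 (34.3%) also differed between calves, 253 of the upregulated and 226 of the downregulated. With calf 6 left out of both tests, it was 337 of 1441 DEG (23.4%). Both tests used the same libraries and the same spread estimate for each gene, so a gene with a small estimate passes both more readily. These shares therefore do not show that DEG differ more between calves. The SD between calves was larger for DEG than for all tested genes, but these sets were not matched for level. DEG were most frequent in the lowest class of expression, where the standard errors of the log2 fold change were also largest. The median SD of log2 CPM across the 8 calves was 0.500 at 0 h and 0.589 at 48 h for upregulated DEG, and 0.542 and 0.579 for downregulated DEG. It was 0.319 and 0.315 for all tested genes. The SD was larger at 48 h than at 0 h in 488 (65.8%) of the upregulated and 379 (57.9%) of the downregulated DEG, beside 49.4% of all tested genes. Without calf 6 the medians for upregulated DEG were 0.444 and 0.529.

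ENSBTAG00000011467 showed the largest rise among the DEG with a mean of at least 1 CPM that changed the same way in all 8 calves. In calves 1 to 8 in turn it was at 0.153, 0.805, 0.139, 0.0681, 0.903, 0.564, 0.370 and 0.197 CPM at 0 h, resting on 2 to 19 counts per library. At 48 h the same calves had 29.5, 13.01, 1.04, 12.3, 22.4, 6.59, 5.19 and 2.04 CPM. The lowest 48 h value (calf 3) lay above the highest 0 h value (calf 5), so the ages did not overlap. The increase within a calf ran from 7.47-fold in calf 3 to 193-fold in calf 1. The fitted log2 fold change was 4.84 (SE 0.46), with an adjusted p of 4.32e-05 by edgeR's quasi-likelihood test.

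ENSBTAG00000001725 showed the next largest rise. Its values at 0 h were 0.230, 0.447, 0.277, 0.375, 2.85, 0.113, 0.370 and 0.247 CPM in calves 1 to 8. They rested on 1 count (calf 6) to 60 counts (calf 5) per library. At 48 h they were 33.1, 8.22, 1.71, 29.1, 17.1, 4.02, 7.46 and 3.07 CPM. Calf 5 was already high at 0 h, above calf 3 at 48 h, and this alone made the ages overlap. Calves 1 and 4 reached the highest levels and calf 3 the lowest, and calves 1 and 3 held the same places at 48 h for ENSBTAG00000011467. The log2 fold change was 4.51 (SE 0.50, edgeR adjusted p = 0.000127).

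ENSBTAG00000021161 showed the largest fall among the DEG with a mean of at least 1 CPM that changed the same way in all 8 calves. It was at 5.95, 5.23, 12.5, 6.13, 8.94, 10.6, 2.80 and 5.87 CPM in calves 1 to 8 at 0 h, on 68 to 270 counts. At 48 h it was at 0.0441, 0.0968, 1.64, 0.0898, 0, 1.34, 0.417 and 1.41 CPM. The ages did not overlap. Calves 1, 2, 4 and 5 had 2 counts or fewer at 48 h and were at the limit of detection, while calves 3, 6, 7 and 8 still had 9 to 46 counts. The log2 fold change was -3.87 (SE 0.53, edgeR adjusted p = 0.000438).

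ENSBTAG00000017251 showed the next largest fall, from a higher level. In calves 1 to 8 its values at 0 h were 33.7, 44.6, 106.6, 25.5, 22.7, 38.03, 61.7 and 33.8 CPM. At 48 h they were 4.41, 1.21, 8.03, 0.629, 2.84, 3.24, 6.44 and 1.61 CPM. Every 0 h value lay above every 48 h value, and calf 3 was highest at both ages. The level left at 48 h was between 0.0247 (calf 4) and 0.131 (calf 1) of that at 0 h. The log2 fold change was -3.81 (SE 0.27, edgeR adjusted p = 1.34e-05).

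**Figure D4:**
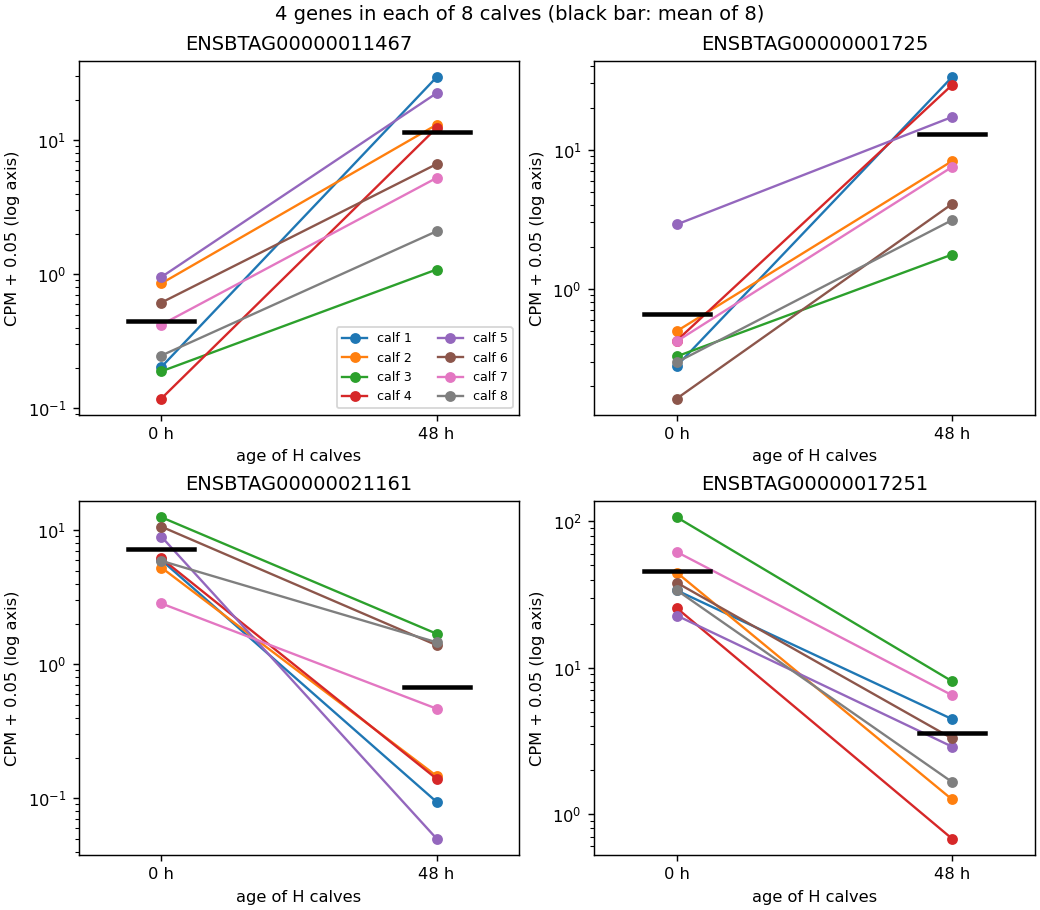
CPM plus 0.05 on a log axis of the 4 genes in each of the 8 H calves at 0 h and 48 h, each line 1 calf and each black bar the mean of 8. The upper genes (ENSBTAG00000011467 and ENSBTAG00000001725) are higher and the lower genes (ENSBTAG00000021161 and ENSBTAG00000017251) lower at 48 h in every calf, and calf 5 at 0 h stands above the other calves for ENSBTAG00000001725.

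The medians of these genes at 72 h and 168 h stayed closer to 48 h than to 0 h. Scaled over all 88 libraries, ENSBTAG00000011467 had medians of 0.325, 10.9, 14.4 and 10.4 CPM in H calves at 0, 48, 72 and 168 h. ENSBTAG00000001725 had medians of 0.373, 9.15, 9.56 and 7.95 CPM. The medians of the falls stayed low as well, at 7.00, 0.300, 0.277 and 0.271 CPM for ENSBTAG00000021161 and at 41.3, 3.48, 2.18 and 3.52 CPM for ENSBTAG00000017251. Single calves departed from these medians. At 168 h ENSBTAG00000017251 ran from 1.14 to 24.1 CPM between calves, with calf 6 highest. Calf 6 then also had 4.82 CPM of ENSBTAG00000021161, within the 0 h range of H calves (3.27 to 14.2 CPM). Calf 5 at 72 h had 0.673 CPM of ENSBTAG00000011467, within its 0 h range (0.0780 to 1.04 CPM).

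The change of the H calves was then set against that of the beef calves, which had suckled. Breed, farm and feeding differed together between H and beef calves and cannot be told apart. In a fit of 44 libraries (22 calves at 0 h and 48 h, calf as a block), 13494 genes were tested, and H calves had 1556 DEG (11.5%), CL calves 2219 (16.4%) and LF calves 2272 (16.8%). The difference between the H change and the mean of the CL and LF changes passed the thresholds for 1 gene (0.00741%, edgeR). DESeq2 called 23 genes for the same difference. An unadjusted p under 0.05 was reached by 1011 genes (7.49%), 459 with a more positive change in H calves (3.4%) and 552 with a more negative one (4.09%). The groups held 8 H, 7 CL and 7 LF calves, and the counts of DEG were not tested against each other. Among the beef libraries, that of LF calf 1 at 0 h stood apart, with 27.7% unmapped and 32.8% multimapping reads. Only 26.1% of its reads fell on genes, and its 10023822 gene counts were the fewest of all 88 libraries. It entered every fit with beef calves except that against CL calves alone. Its part in the LF changes was not tested.

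Genes that changed in both beef groups changed the same way in H calves for the most part. Of 751 genes upregulated in both CL and LF calves, 566 (75.4%) were upregulated DEG in H calves, beside 6.18% of all genes in that fit. These 566 made up 67.9% of the upregulated DEG of H calves. The H estimate was above 0 for 748 of the 751. Of 502 genes downregulated in both beef groups, 378 (75.3%) were downregulated DEG in H calves, beside 5.35% of all genes. They made up 52.4% of the downregulated DEG of H calves, and the H estimate was below 0 for 501 of the 502. No gene (0) was called in the opposite direction. For the genes chosen as called in both beef groups, the median log2 change was 0.95 in H, 1.23 in CL and 1.24 in LF calves for rises, and -0.98, -1.20 and -1.17 for falls. The beef medians describe values that chose these genes. The H changes did not enter the choice, but the H libraries shared the filter, scaling and spread estimates of that fit.

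ENSBTAG00000007147 was the gene with a called difference, and it is given because the count was 1. In H calves 1 to 8 it was at 3.55, 3.84, 2.82, 3.34, 3.80, 2.03, 3.50 and 3.01 CPM at 0 h. At 48 h the values were 3.92, 3.44, 2.07, 4.94, 5.01, 2.35, 4.45 and 2.14 CPM, higher in 5 calves and lower in 3. The ages overlapped, and the log2 change in H calves was 0.079 (edgeR adjusted p = 0.769). Scaled over all 88 libraries, so that the breeds can be set side by side, H calves ran from 2.31 to 4.50 CPM (median 3.95) at 0 h and from 2.42 to 5.84 CPM (median 4.29) at 48 h. On this scale the gene in CL calves ran from 1.10 to 3.46 CPM (median 2.04) at 0 h and from 3.43 to 6.95 CPM (median 5.03) at 48 h. In LF calves it ran, on the same scale, from 1.81 to 4.40 CPM (median 2.91) and from 4.45 to 10.5 CPM (median 7.38). The log2 change was 1.22 (SE 0.15) in CL and 1.35 (SE 0.15) in LF calves. The H change was lower than the beef mean by 1.19 on the log2 scale (SE 0.18, edgeR adjusted p = 0.00679). It missed the threshold without the block (adjusted p = 0.242), in a test against a difference of 1.5-fold (adjusted p = 1), against CL calves alone (adjusted p = 0.166) and against LF calves alone (adjusted p = 0.108). At 72 h the median on that scale in H calves was 6.64 CPM, beside 6.09 in CL and 7.12 in LF calves. At 168 h the medians were 3.22 CPM in H, 3.96 in CL and 4.09 in LF calves. The later ages were not tested.

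The 4 genes described in full for H calves also changed in the beef calves in the same direction. The log2 change of ENSBTAG00000011467 was 4.62 in CL and 7.99 in LF calves, and that of ENSBTAG00000001725 was 4.38 and 7.44. For ENSBTAG00000021161 it was -6.50 and -5.56, and for ENSBTAG00000017251 it was -5.46 and -4.69. The estimate in H calves was smaller in size than the mean of the beef estimates for all 4 genes. For both rises only the LF estimate was larger, since the H estimates in this fit (4.88 and 4.52) were above those of CL calves. None of the differences passed the adjusted threshold (edgeR adjusted p = 0.635, 0.702, 0.551 and 0.404 in that order). At 48 h ENSBTAG00000021161 had no count in 3 of 7 CL and 2 of 7 LF libraries, so its beef estimates rest on very low counts. The beef estimates of both rises rest on low counts at 0 h. ENSBTAG00000011467 then had 1 to 8 counts per library in CL and 0 to 7 in LF calves. ENSBTAG00000001725 had 4 to 12 in CL and 5 to 13 in LF calves.

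**Figure D5:**
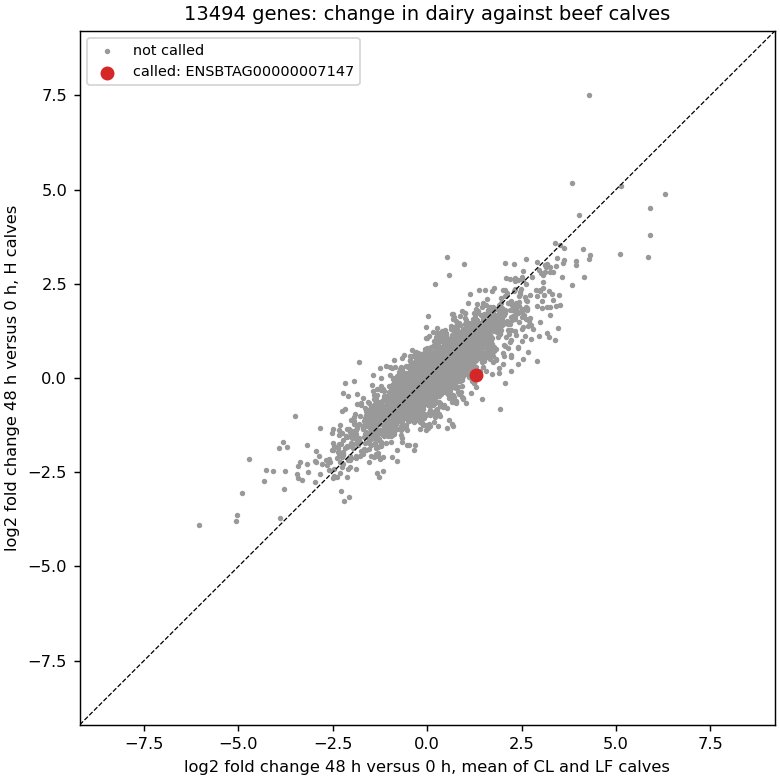
Log2 fold change at 48 h versus 0 h in H calves against the mean of the CL and LF calves, each grey point 1 of 13494 genes and the dashed line marking equal change. The red point is ENSBTAG00000007147, at 0.086 in H calves beside 1.22 in CL and 1.35 in LF calves.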

How the data were processed

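Whole-blood RNA (Tempus tubes) was sequenced as single-end TruSeq libraries. The authors trimmed reads (cutadapt, FastQC), aligned them with STAR to UMD3.1 and deposited unnormalized counts per Ensembl gene. Samples with few reads had been rejected. STAR leaves out multimapping reads, which can lower the counts of genes with similar copies. Strands held 49.2 to 50.7% of stranded counts, so unstranded counts were used, and overlapping antisense genes cannot be told apart.

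Counts of the 16 H libraries were fitted with edgeR 4.0.16 in R 4.3.3 (quasi-likelihood, robust, TMM, default low-count filter by age, calf as block). Standard errors are the log2 fold change over the square root of F. Log2 CPM used a prior count of 2. H and beef changes were compared in 44 libraries. DESeq2 1.42.0 was an alternative. CPM by calf are TMM-scaled over the 16 libraries.

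With each gene centred on its mean at each age, same-calf libraries deviated together (mean r across genes 0.523, lowest 0.318), as the shared tag implies. Different calves had a mean r of -0.069, but the centring itself pushes this mean below 0, so it is no separate result. Among 120 pairs of libraries 0 were identical, and chi-square per degree of freedom was at least 52.6. Scripts were tested on simulated data.

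Members and lists were chosen with earlier results of these data known. The rule for genes given individually asked for symbols, a mean of at least 1 CPM and the same direction in all 8 calves. With 0 symbols matched, that condition was dropped and the 2 largest rises and falls were kept. Gene lists, cell type markers and the hemoglobin share need symbols and were left out. Of columns from other samples, 0 were found.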

Additional observations from a re-analysis of the deposited data

Results flagged for a closer look

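Values lying far from the other 7 calves of the same age were looked for in 22 sets of 8 values (Dixon's test), and 9 sets held one. Chance alone gives about 1 in 20, and several of the 9 come from the same libraries.

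Of the 9, 6 belong to calf 6. Its multimapping share was 40.96% at 0 h and 49.15% at 48 h, and its 10 genes with most counts took 38.95% and 48.82% of gene counts. At 48 h its share of reads outside genes, 8.686%, was the lowest, and it had 11016 genes at 1 CPM or more, the fewest of the 8 calves. The library of calf 1 at 0 h had the most gene counts, 39304404. ENSBTAG00000001725 in calf 5 at 0 h (2.852 CPM) and ENSBTAG00000017251 in calf 3 at 0 h (106.6 CPM) were above the other calves.

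ENSBTAG00000007147 changed differently in H and in beef calves, by -1.194 on the log2 scale (edgeR, adjusted p = 0.00679) in the test of the difference itself. The call was lost without the calf block (adjusted p = 0.242), in a test against 1.5-fold (adjusted p = 1), and against CL (adjusted p = 0.166) or LF calves alone (adjusted p = 0.108).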

How the results depend on the processing

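The 4 genes described in full kept their direction and stayed past the threshold in the 17 alternative fits that tested all 4. With at least 10 counts in every sample only ENSBTAG00000017251 was tested, and it was called. Dropping the calf block changed the DEG count from 1397 to 868 (372 downregulated), and leaving out the calves with a label ending in R to 854 (484 upregulated, 370 downregulated). Without a fold change threshold there were 2547 DEG (1320 and 1227), and 458 (265 and 193) in a test against 1.5-fold. Leaving out each calf gave 1261 to 1441 DEG (682 to 777 upregulated, 539 to 671 downregulated). The other 7 alternatives, DESeq2 included, stayed within 1.5 times.

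For the difference from beef calves, 1 gene was called. There were 0 without the replicate block, 0 in the test against 1.5-fold and 0 against CL calves alone. There were 2 without a filter, 2 against LF calves alone (neither ENSBTAG00000007147), 3 without the calves with a label ending in R, 23 with DESeq2 and 1 to 3 without each H calf. Genes differing between calves numbered 4144 with a DESeq2 likelihood ratio test and 1114 to 2422 without each calf. The change in reads outside genes was -5.43 to -3.98 points without each calf (exact permutation p = 0.0312 to 0.0625). The cause of these differences was not tested. Comparisons against a single beef group, leaving out the 3 most counted genes, and all alternatives for calf differences and read shares were chosen after seeing the data. Leaving out hemoglobin genes, the hemoglobin share and all alternatives for gene lists were not run, since they need symbols. The limit of detection was set at 3 counts, which is 0.0763 to 0.224 CPM before TMM scaling. Values resting on fewer counts are given but are uncertain.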
